A study of Mus musculus with 104 samples.

Results

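Nnt encodes nicotinamide nucleotide transhydrogenase, an enzyme of the inner mitochondrial membrane. The gene was followed across 13 lines of wild type C57BL/6 mice, in RNA of the cerebral cortex taken at 6 months of age. It was found by its symbol and Ensembl identifier, and it is 1 of 19563 genes in the Ensembl gene counts and 1 of 24058 in the RefSeq gene counts used here. Each line carries the name of a gene and is represented by 4 females and 4 males. The lines are Tbc1d8, Gsg1l, Hrk, Ece2, Rasgef1a, Zswim6, Pcdh20, Rgs9, Ppp1ca, Arpp19, Morf4l1, Dach1 and Kdm3b. Every animal is labelled wild type, so none of these groups is described as carrying a mutation, and no treatment is given. The strain is labelled C57BL/6 with no substrain named. The label that gives the line is tagged as a batch, so line and batch cannot be told apart in any comparison of lines. Nnt was selected on its level by line in these same libraries, as earlier results had shown it, so its levels by line are a description and are given with no test.

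The transhydrogenase uses the proton gradient across the inner membrane to pass reducing equivalents from NADH to NADP+, and so supplies NADPH inside mitochondria. That NADPH keeps glutathione and thioredoxin reduced, which detoxify peroxides, and isocitrate, malate, glutamate and folate dehydrogenases are its other sources. In mice Nnt is best known for a natural deletion of internal exons in the C57BL/6J substrain, which the C57BL/6N substrain does not carry.

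The mouse reference genome was built from C57BL/6J, so reads of exons lost there have no place in it and a gene count cannot show them. In the GENCODE vM21 annotation of build GRCm38, Nnt (ENSMUSG00000025453) lies on the minus strand of chromosome 13, from 119335448 to 119408997. Its longest annotated coding transcript, Nnt-202, has 17 exons, of which 16 hold 2505 coding bases, or 835 codons. A shorter model, Nnt-201, leaves out the coding exons at 119374629 to 119374774 and 119372396 to 119372591 and has 721 codons. The models part after coding exon 6 (119381676 to 119381863), so the start of the coding sequence and both joins are printed here 5′ to 3′ from the GENCODE transcripts, to show which RNA the counts describe. Capitals mark the start codon in the first sequence and the bases after the join in the others.
Nnt-202 first coding bases: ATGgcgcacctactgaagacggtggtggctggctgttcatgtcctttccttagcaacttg
Nnt-202 join to the exon at 119374629 to 119374774: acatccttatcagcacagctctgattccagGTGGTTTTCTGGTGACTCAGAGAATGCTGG
Nnt-201 join to the exon at 119369912 to 119370145: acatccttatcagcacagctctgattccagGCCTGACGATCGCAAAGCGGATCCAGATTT
The deposited values are totals per gene, so neither join was counted on its own and the share of each transcript was not analysed here. A further model of the same span with the name Nnt (ENSMUSG00000116207) was not used.

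Nnt stood higher in the lines Tbc1d8 and Gsg1l than in the other 11 lines. Levels are given first in CPM, the gene's reads relative to all reads of the library in tested genes, after trimmed-mean scaling. In Tbc1d8 the 8 libraries ran from 30.2 to 34.7 CPM with a median of 32.5. The females were at 32.03, 32.4, 33.9 and 34.7 CPM and the males at 30.2, 32.1, 32.6 and 33.4 CPM. In Gsg1l the males were at 31.4, 31.6, 32.2 and 32.7 CPM, and 3 females were at 30.6, 31.2 and 35.1 CPM. The remaining Gsg1l female, replicate 14, was at 23.7 CPM. The 88 libraries of the other 11 lines ran from 18.8 to 27.2 CPM with a median of 21.9. All 8 Tbc1d8 libraries and 7 of the 8 Gsg1l libraries thus lay above every library of the other lines, and Gsg1l female 14 lay among them, below 8 of the 88.

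Mean levels were 32.7 ± 1.35 CPM in Tbc1d8 and 31.1 ± 3.28 in Gsg1l (SD, n = 8), against 21.9 ± 1.42 over the other 88 libraries. The ratios to that mean were 1.49 and 1.42. Without female 14, Gsg1l came to 32.1 ± 1.46 CPM (SD, n = 7). In a model over all lines, the log2 difference from the mean of the other 12 lines was 0.53 ± 0.03 (standard error) for Tbc1d8 and 0.46 ± 0.03 for Gsg1l. The reference of each comparison holds the other high line and the same 11 lines. Of the variance of log2 CPM, 82.1% lay between the 13 lines, and among the other 11 lines 10.7% did. These shares were not adjusted for the number of lines. Grouping libraries with no line difference also gives some share, so 10.7% does not show that the 11 lines differ. In this bulk tissue, more cells that hold the transcript and more transcript per cell cannot be told apart.

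**Figure D1:**
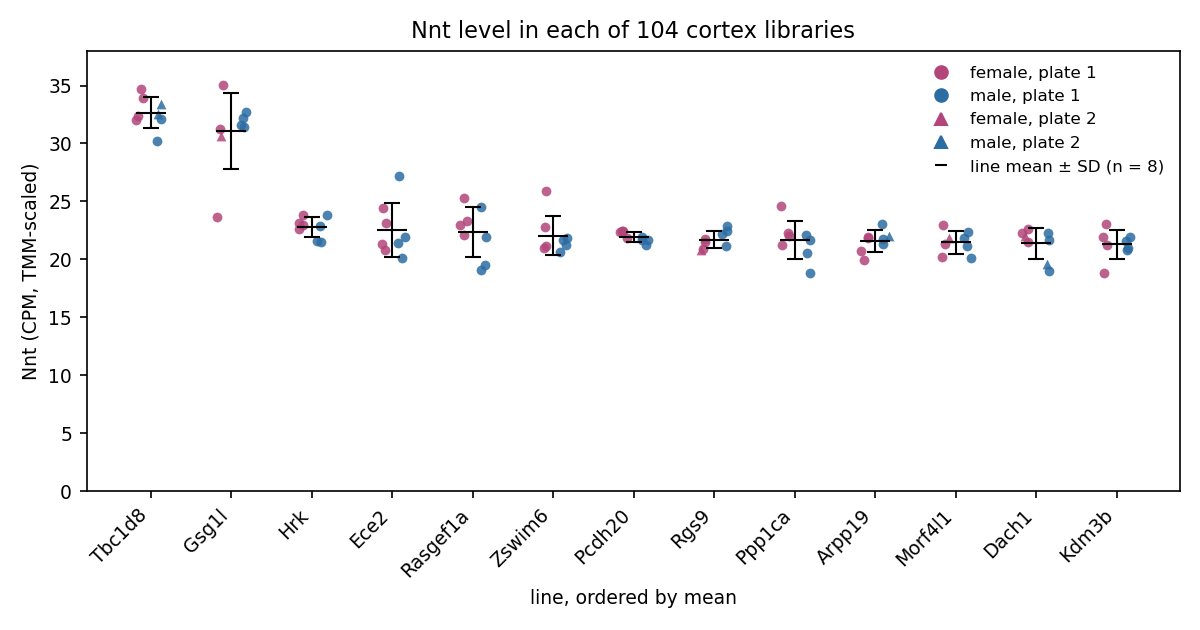
Nnt in CPM (vertical axis) in each library, by line in order of the mean, with females left and males right of the line mean ± SD (n = 8) and triangles for plate 2. The 8 Tbc1d8 libraries and 7 Gsg1l libraries lie at 30.2 CPM or above, while Gsg1l female 14 at 23.7 CPM lies with the other lines.

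The order of the remaining lines was shallow. Hrk followed at 22.8 ± 0.889 CPM, then Ece2 at 22.5 ± 2.31, Rasgef1a at 22.3 ± 2.18, Zswim6 at 22.04 ± 1.69, Pcdh20 at 21.95 ± 0.454 and Rgs9 at 21.7 ± 0.753 (SD, n = 8 each). Ppp1ca at 21.6 ± 1.65, Arpp19 at 21.6 ± 0.935, Morf4l1 at 21.5 ± 0.984, Dach1 at 21.4 ± 1.33 and Kdm3b at 21.3 ± 1.23 CPM closed the order. Only the step of 8.27 CPM from Gsg1l to Hrk exceeded the pooled SD of its neighbours, which was 2.40 CPM. The step from Tbc1d8 to Gsg1l was 1.60 CPM against a pooled SD of 2.51, and no step from Hrk downwards exceeded 0.314 CPM.

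Lines differed in how tightly their libraries agreed. Counting error alone gave a coefficient of variation of 3.24% in Tbc1d8 and 3.95% in Pcdh20, where the observed values were 4.15% and 2.07%. In Ece2 the observed value was 10.3% against 3.80% from counting, and the male replicate 12 of that line held the highest level of the 11 lines, 27.2 CPM. Rasgef1a reached 9.75% and Gsg1l 10.6%, the last falling to 4.55% without female 14.

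Both annotations gave the same picture. The Ensembl counts held 823 to 1103 Nnt reads in Tbc1d8 and 695 to 1028 in Gsg1l, and a median of 651 in the other lines. Kdm3b female 22, the shallowest library, held 66. The RefSeq count was 96.2% ± 1.104 of the Ensembl count (SD, all libraries), with a range of 93.1% to 98.8%. In the deposited FPKM, which divide by gene length as well as depth, the Ensembl table gave 4.37 ± 0.191 for Tbc1d8 and 4.17 ± 0.453 for Gsg1l (SD, n = 8). The other 88 libraries were at 2.92 ± 0.190 FPKM. The RefSeq table gave 6.99 ± 0.311, 6.63 ± 0.755 and 4.59 ± 0.318 FPKM, so its scale was higher in every line while the ratios, 1.52 and 1.44, stayed near the 1.497 and 1.43 of the Ensembl table. In both FPKM tables all 8 Tbc1d8 libraries and 7 Gsg1l libraries lay above every library of the other lines. On the FPKM scale Nnt was a transcript of low to middling abundance, with a mean level above that of 37.4% of the 14283 tested genes.

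The tissue label was checked against markers of cortical cells. The excitatory neuron marker Camk2a, a calcium-dependent kinase, averaged 617 FPKM, the interneuron marker Sst 179.5 FPKM and the myelin gene Mbp 119 FPKM. The choroid plexus marker Ttr was at 0.641 ± 0.426 CPM in Tbc1d8 and 0.384 ± 0.326 in Gsg1l (SD, n = 8 each), and at 3.71 ± 29.3 in the other 88 libraries, an SD above the mean. The striatal marker Ppp1r1b averaged 23.5 FPKM. Library totals ran from 3.53 M reads in Kdm3b female 22, the next lowest holding 25.03 M, to 34.7 M, and sex-linked transcripts went against the label in 3 libraries.

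Sex and plate were not used in choosing Nnt and were tested. Nnt averaged 23.6 ± 3.92 CPM in the 52 females and 23.2 ± 4.04 in the 52 males. The log2 difference, female minus male, was 0.03 ± 0.02 (standard error) with line as a term, and its adjusted p was 0.338 in edgeR's quasi-likelihood fit, with the Benjamini-Hochberg method over all tested genes. A two-sided permutation of sex within lines gave p = 0.1527, and 0.2312 without the 3 libraries whose transcripts went against their sex label. Of all tested genes, 9.27% were called by sex, that is, had an adjusted p under 0.05. Within lines, the mean was higher in females in 8 of 13 lines and lower in 5. The widest gaps were in Rasgef1a, with 23.4 ± 1.36 CPM in females and 21.3 ± 2.48 in males, and, the other way, in Gsg1l, with 30.1 ± 4.74 and 31.98 ± 0.590 (SD, n = 4 each). Rasgef1a holds 2 of the 3 libraries that went against their sex label. The Gsg1l females include replicate 14 at 23.7 CPM, and the other females of that line were at 30.6, 31.2 and 35.1 CPM. The direction of the Gsg1l gap thus rests on that library. The interaction of line and sex had an adjusted p of 0.999 by edgeR's F-test, in which 0.035% of all genes were called.

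Plate 2 held 8 libraries and plate 1 the other 96. The log2 difference between plates, with line and sex as terms, was -0.01 ± 0.04 (edgeR adjusted p = 0.943), where 0.371% of all genes were called, 0.21% higher and 0.161% lower. Within plate 2, both Tbc1d8 libraries were at 32.6 and 33.4 CPM, the Gsg1l library was at 30.6 CPM, and 5 libraries of other lines ran from 19.6 to 22.1 CPM. The high level of these lines was thus seen on either plate.

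Of the genes around Nnt on chromosome 13, none tested in the Ensembl counts rose in either line. Within 2 Mb of its start, 4 genes are described from the Ensembl counts, and none was called in either line, where 12.5% of all tested genes were called in Tbc1d8 and 11% in Gsg1l. Paip1, which binds the poly(A)-binding protein in translation, starts 19.6 kb away and was at 62.5 CPM in Tbc1d8, 62.4 in Gsg1l and 65.02 in the other lines. The log2 differences from the other 12 lines were -0.05 ± 0.03 and -0.05 ± 0.03, and neither passed the test. The uncharacterised 4833420G17Rik, the growth factor gene Fgf10 and the mitochondrial ribosomal protein gene Mrps30 did not pass in either line.

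From the RefSeq counts 8 genes of the same window are described, where 12.4% of all genes were called in Tbc1d8 and 10.5% in Gsg1l. In Tbc1d8 none of the 8 rose and 1 fell, against 5.56% and 6.88% of all genes. In Gsg1l 1 rose and none fell, against 4.52% and 5.95%. The cholesterol synthesis gene Hmgcs1, 281 kb from Nnt, fell by 0.19 ± 0.04 in Tbc1d8 (adjusted p = 4.63e-05). In Gsg1l, 4833420G17Rik rose by 0.09 ± 0.03 (adjusted p = 0.0480), a call that missed the threshold in the Ensembl counts at 0.0513. The widest log2 difference above 0 in the window was 0.14 ± 0.08, for Fgf10 in Tbc1d8, which did not pass, against 0.53 for Nnt.

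**Figure D2:**
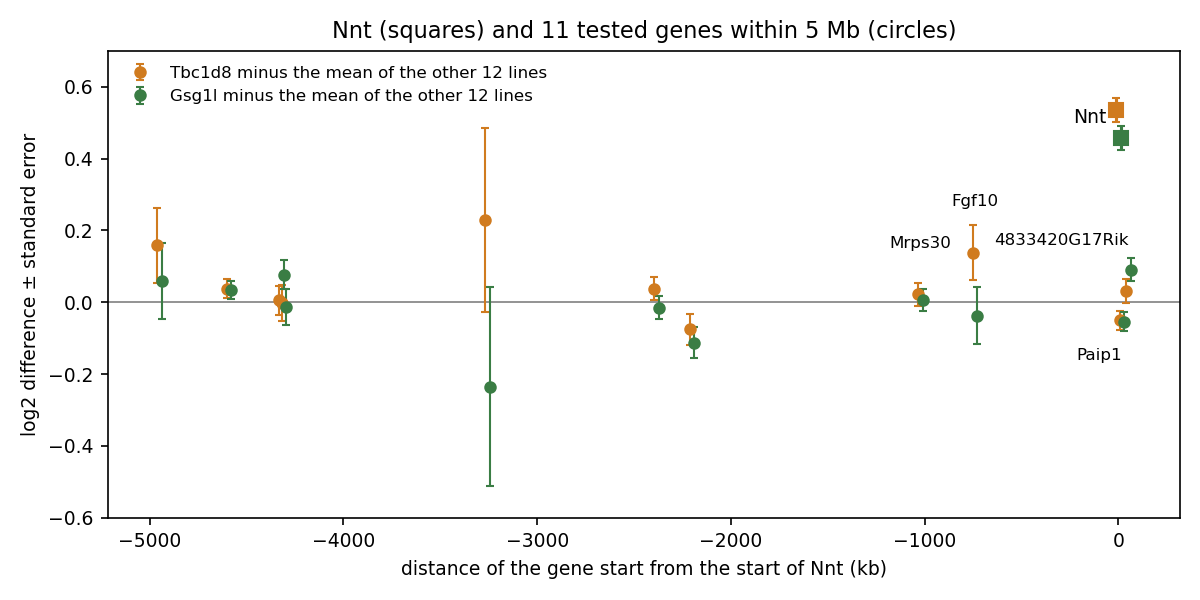
Log2 difference ± standard error of Tbc1d8 and Gsg1l from the mean of the other 12 lines (vertical axis) for Nnt (squares) and 11 tested genes within 5 Mb (circles), by distance of the gene start in kb. Nnt is at 0.53 and 0.46, and none of the genes plotted as circles was called.

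Genes known from other work to differ between C57BL/6 substrains were read beside Nnt. The ones described were tested in the Ensembl counts, except where another source is named. Gabra2, the alpha 2 subunit of the GABA-A receptor, was at 90.9 ± 6.999 CPM in Tbc1d8, 81.2 ± 15.8 in Gsg1l and 52.2 ± 8.34 in the other lines (SD, n = 8, 8 and 88). It rose by 0.76 ± 0.06 and 0.58 ± 0.06 on the log2 scale (edgeR adjusted p = 1.58e-17 and 1.90e-11). Ide, the insulin-degrading enzyme, fell by 0.34 ± 0.08 in Tbc1d8 (adjusted p = 0.00209) and in Gsg1l differed by -0.17 ± 0.08 (adjusted p = 0.174). Cyfip2, a regulator of actin, was level at 1592 CPM in Tbc1d8, 1595 in Gsg1l and 1596 elsewhere.

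Wdfy1, an endosomal adaptor of Toll-like receptor signalling, was read from the RefSeq counts, since it lies past the end of the Ensembl counts used here. It rose by 0.63 ± 0.07 in Tbc1d8 (adjusted p = 1.12e-12) and by 0.57 ± 0.07 in Gsg1l (adjusted p = 2.10e-10). In Tbc1d8 its libraries ran from 30.4 to 35.98 CPM with a median of 33.6, and in Gsg1l 7 ran from 32.1 to 35.96 CPM while female 14 was at 21.2. Most other lines had narrow ranges and means of 18.9 to 20.2 CPM. Dach1 and Rgs9 did not. In Dach1, 4 libraries were at 17.4, 18.3, 19.6 and 19.8 CPM and 4 at 32.3, 34.6, 35.3 and 36.9. In Rgs9, 4 libraries were at 19.7, 20.05, 20.5 and 20.96 CPM and 4 at 32.1, 34.5, 34.7 and 37.3. No library of these lines lay between those levels, and 6 of the 8 upper values fell within the range of Tbc1d8.

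Nnt did not follow Wdfy1 in these libraries. In the 4 Dach1 libraries with Wdfy1 at 32.3 to 36.9 CPM, female 7 and males 6, 7 and 8, Nnt was at 22.2, 21.6, 19.4 and 19.3 CPM in the RefSeq counts. In the 4 Rgs9 libraries at 32.1 to 37.3 CPM, Nnt was at 21.7, 20.8, 21.96 and 21.1 CPM. All 8 lay within the Nnt range of the lines other than Tbc1d8, Gsg1l, Dach1 and Rgs9, from 18.3 CPM (Kdm3b) to 27.4 CPM (Ece2). Gabra2 split Dach1 at the same place, with 47.9 to 54.6 CPM in those 4 libraries and 32.9 to 37.9 CPM in the other 4. In Rgs9 Gabra2 stayed between 25.5 and 34.8 CPM in all 8. Gsg1l female 14 was low for all 3 genes, at 23.4 CPM for Nnt, 21.2 for Wdfy1 and 26.03 for Gabra2. These libraries were picked out after their values were seen.

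Over the 13 line means, the correlation of Wdfy1 with Nnt was 0.82 (Pearson, log2 CPM), and over the 11 lines without Tbc1d8 and Gsg1l it was -0.17. Within lines, after line and sex were removed, it was 0.05 over all libraries and -0.11 without Gsg1l female 14. The corresponding values for Gabra2 were 0.89, -0.25, 0.29 and 0.07. The points share libraries and their scaling.

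**Figure D3:**
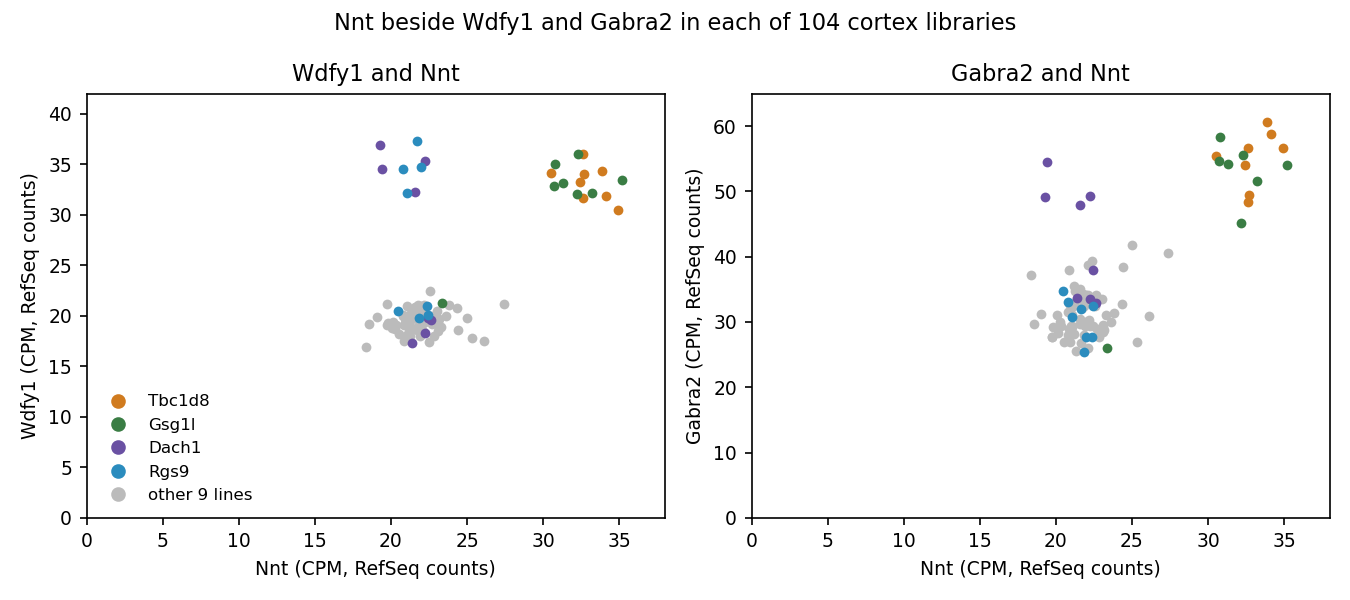
Wdfy1 (left) and Gabra2 (right) against Nnt in CPM of the RefSeq counts, 1 point per library, with 4 lines in colour and the other 9 in grey. In Dach1 and Rgs9, 4 libraries each reach Wdfy1 levels of 32.1 CPM or more with Nnt at 22.2 CPM or less, and the same 4 Dach1 libraries reach Gabra2 levels of 47.9 CPM or more.

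The NADPH and redox genes of Nnt's pathway were read in 8 lists, 131 of whose 134 genes were tested in the Ensembl counts. In Tbc1d8, 9 rose and 24 fell, against 5.79% of all tested genes that rose and 6.72% that fell. In Gsg1l, 11 rose and 16 fell, against 5.21% and 5.75%. That is 25.2% of the tested members in Tbc1d8 and 20.6% in Gsg1l, and the sum holds genes that share a pathway. The median log2 difference of the members was 0.00 in Tbc1d8 and 0.01 in Gsg1l, as it was over all tested genes (0.01 in each). Between the sexes 7 were higher in females and 4 lower, 8.40% of the members, against 4.82% of all genes higher and 4.45% lower. Those higher in females included Me2, a mitochondrial malic enzyme, by 0.07 ± 0.02, and Mthfd2 by 0.13 ± 0.04, and Idh2 was lower by -0.06 ± 0.02.

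On the list of mitochondrial NADPH sources, with Nnt left out, the called genes all belonged to folate metabolism. Beside dehydrogenases, this list holds folate enzymes such as Shmt2 and Mthfd1l that do not make NADPH themselves. Of 11 members, 4 fell in Tbc1d8 and 3 in Gsg1l, and none rose in either line. Over all tested genes, 6.72% fell and 5.79% rose in Tbc1d8, and 5.75% fell and 5.21% rose in Gsg1l. Mthfd2, the mitochondrial methylenetetrahydrofolate dehydrogenase, was at 4.11 to 5.14 CPM in Tbc1d8 with a median of 4.81. In Gsg1l it was at 3.98 to 5.10 CPM in 7 libraries and 6.30 in female 14, and in the other lines at 4.12 to 13.5 with a median of 8.57. It fell by 0.80 ± 0.09 and 0.78 ± 0.09 (edgeR adjusted p = 4.77e-11 and 3.86e-10). Without Dach1, the other 10 lines ran from 6.22 CPM upwards, above every Tbc1d8 library and every Gsg1l library except female 14.

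Aldh1l2, the mitochondrial formyltetrahydrofolate dehydrogenase, fell by 0.62 ± 0.09 in Tbc1d8 and by 0.55 ± 0.09 in Gsg1l. Shmt2, which feeds serine carbon into mitochondrial folate, fell by 0.24 ± 0.04 and by 0.19 ± 0.04. Mthfd1l, a formate-releasing synthetase, fell by 0.29 ± 0.07 in Tbc1d8 and differed by -0.01 ± 0.06 in Gsg1l, where it did not pass. Mthfd2l, a further folate dehydrogenase, differed by 0.00 ± 0.06 in Tbc1d8 and by -0.08 ± 0.06 in Gsg1l and passed in neither. The dehydrogenases Idh2, at 30.3, 29.97 and 28.7 CPM in Tbc1d8, Gsg1l and the other lines, and Glud1, at 208, 206 and 200.6 CPM, did not pass in either line. Neither did the malic enzymes Me2 and Me3 or the mitochondrial NAD kinase Nadk2. Asns, asparagine synthetase, was read beside them and fell by 0.40 ± 0.04 in Tbc1d8 and by 0.29 ± 0.03 in Gsg1l.

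Genes on the list of cytosolic NADPH sources and of the pathways that feed them differed little. Pgd, a dehydrogenase of the pentose phosphate pathway, rose by 0.11 ± 0.03 in Tbc1d8 and by 0.11 ± 0.03 in Gsg1l, and it was the only one of 13 members called in Tbc1d8. In Gsg1l Rpe and Mthfd1 fell by 0.12 ± 0.04 and by 0.06 ± 0.02. Taldo1 and Tkt, the members highest in FPKM, did not pass. Over all tested genes, 12.5% were called in Tbc1d8 and 11% in Gsg1l.

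Of the peroxide defence genes, 2 of 13 on the mitochondrial list and 2 of 17 on the cytosolic list were called in Tbc1d8, and 1 and 5 in Gsg1l. Over all tested genes, 12.5% were called in Tbc1d8 and 11% in Gsg1l, and the lists were not tested against each other. On the mitochondrial list of 15, with 13 tested, Sod2, the superoxide dismutase of the matrix, fell by 0.10 ± 0.02 in Tbc1d8 and by 0.12 ± 0.02 in Gsg1l. Srxn1, which repairs oxidised peroxiredoxins, rose by 0.12 ± 0.02 in Tbc1d8. The mitochondrial peroxidases Prdx3 and Prdx5 did not pass in either line. Gpx4, a glutathione peroxidase of membrane lipids read from the RefSeq counts, rose by 0.12 ± 0.03 in Tbc1d8 (adjusted p = 0.00906), and Txnrd2 did not pass. On the cytosolic list of 17, the glutathione synthetase Gss and the methionine sulfoxide reductase Msra rose in Tbc1d8, by 0.14 ± 0.04 and 0.09 ± 0.03. In Gsg1l Gpx3 rose by 0.23 ± 0.07, Msra by 0.12 ± 0.03, Txn1 by 0.10 ± 0.02, Prdx1 by 0.09 ± 0.03 and Sod1 by 0.07 ± 0.02, and none of the 17 fell in either line.

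Nrf2 targets, genes of the response to oxidants, had mixed directions, with 1 of 13 higher and 2 lower in Tbc1d8 and 1 and 1 in Gsg1l. Of these, Gsta4, a glutathione transferase for lipid aldehydes, rose by 0.24 ± 0.05 in Tbc1d8 and by 0.18 ± 0.05 in Gsg1l. Sqstm1, an autophagy receptor, fell by 0.08 ± 0.01 and 0.05 ± 0.01, and the haem oxygenase Hmox1 fell by 0.30 ± 0.09 in Tbc1d8. The transcription factor Nfe2l2 itself did not pass in either line. Among 19 tested genes of NAD metabolism, 1 rose and 2 fell in Tbc1d8, and 2 rose and 1 fell in Gsg1l. For both lists, the share to set beside these counts is that of all tested genes called, 12.5% for Tbc1d8 and 11% for Gsg1l. Neither list was tested against that share. The mitochondrial deacetylase Sirt3 rose by 0.08 ± 0.02 and 0.12 ± 0.02. Sirt4 rose by 0.15 ± 0.04 in Gsg1l, and Nmnat2, which makes NAD in axons, fell by 0.09 ± 0.02 in Tbc1d8.

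The tricarboxylic acid cycle, which makes the NADH that Nnt uses, was the longest list and held the largest number of called members. Of 23, 9 fell and 1 rose in Tbc1d8, and 7 fell and none rose in Gsg1l. Over all tested genes, 6.72% fell and 5.79% rose in Tbc1d8, and 5.75% fell and 5.21% rose in Gsg1l. The falls of list members were small, 0.06 to 0.09 on the log2 scale in Tbc1d8 and 0.06 to 0.10 in Gsg1l. Dlst, of the oxoglutarate dehydrogenase complex, was at 130.5 ± 6.59 CPM in Tbc1d8, 129 ± 4.96 in Gsg1l and 139 ± 4.39 elsewhere (SD, n = 8, 8 and 88). Sdha, the catalytic subunit of succinate dehydrogenase, was at 368 ± 9.08, 374 ± 18.3 and 391 ± 8.89 CPM. Fh1, Dld, Suclg1 and Sucla2 fell in both lines, and Suclg2 rose by 0.12 ± 0.04 in Tbc1d8.

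Among 22 mitochondrial carriers and calcium uptake genes, 2 rose and 6 fell in Tbc1d8, and 2 rose and 1 fell in Gsg1l. Over all tested genes, 5.79% rose and 6.72% fell in Tbc1d8, and 5.21% rose and 5.75% fell in Gsg1l. Parts of the calcium uniporter went in opposite directions. Smdt1, its essential regulator, rose by 0.18 ± 0.03 and 0.14 ± 0.03, and Mcu, its pore, fell by 0.12 ± 0.03 and 0.10 ± 0.03. Slc25a12, the aspartate and glutamate carrier, fell by 0.14 ± 0.02 in Tbc1d8, and the abundant Vdac1 and Slc25a4 fell by 0.09 ± 0.02 and 0.07 ± 0.02 there.

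The oligodendrocyte and microglial marker scores lay outside the range of the other lines in both Tbc1d8 and Gsg1l. The oligodendrocyte score, the mean log2 CPM of 7 tested markers, was 7.06 in Tbc1d8 and 7.07 in Gsg1l against 7.14 to 7.25 in the other lines. None of the 7 was called in either line. The microglial score over 8 markers was 4.91 and 4.94 against 4.81 to 4.90, with P2ry12 called in Gsg1l. The erythroid score over 2 markers was 2.06 in Tbc1d8 and 1.87 in Gsg1l. It was 1.57 to 1.98 in the other 11 lines, and neither marker was called. Astrocyte, endothelial, excitatory neuron, interneuron, striatal and choroid plexus scores lay within the range of the other lines. The part of cell composition in the gene differences was not tested.

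**Figure D4:**
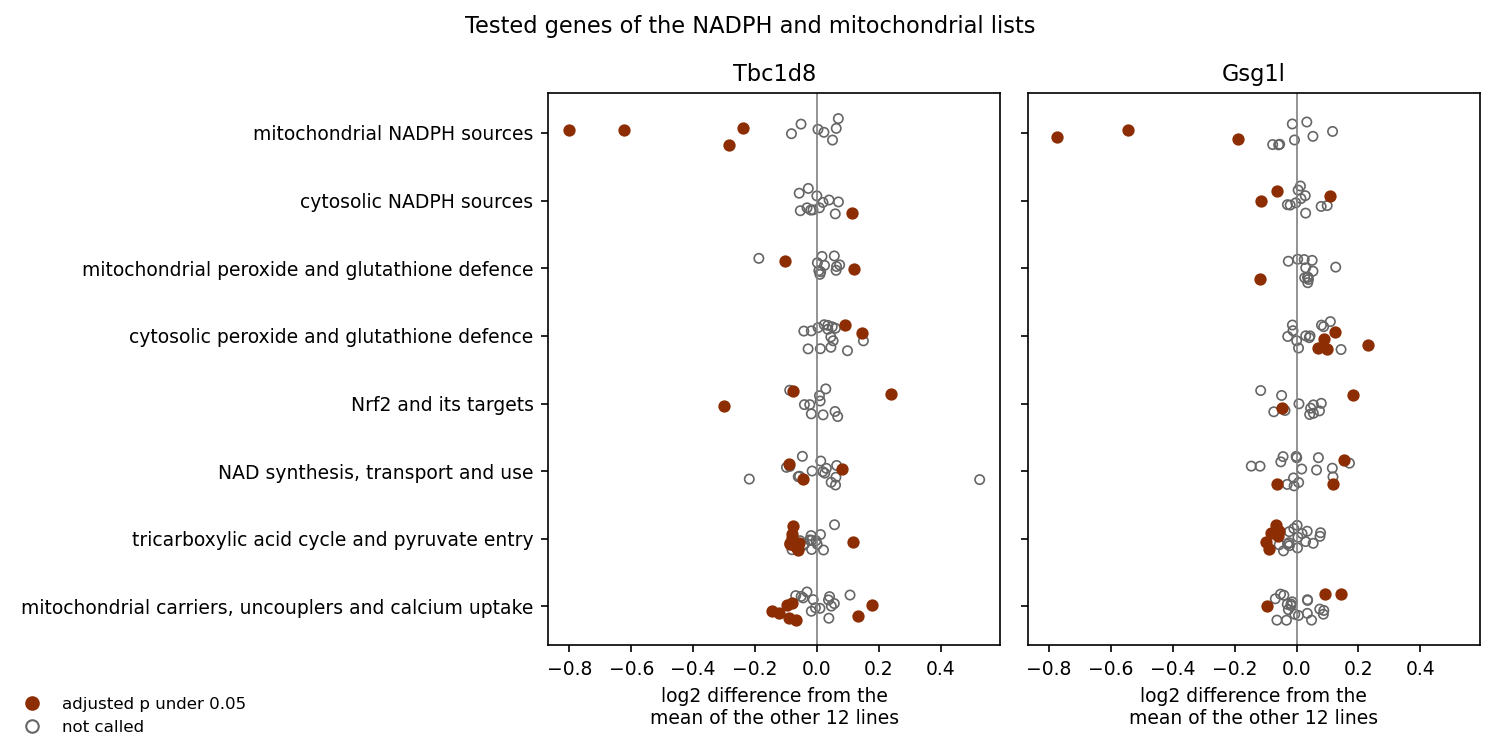
Log2 difference of Tbc1d8 (left) and Gsg1l (right) from the mean of the other 12 lines for the 131 tested genes of 8 lists, filled where the adjusted p was under 0.05. The mitochondrial NADPH sources reach -0.80 and -0.78, set by Mthfd2, and most called genes of the tricarboxylic acid cycle lie between -0.06 and -0.10.

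The genes with a line pattern most like that of Nnt were taken over the 13 line means of log2 CPM, with females and males weighted equally. Among 12045 genes whose log2 CPM averaged 1 or more, 80 had a Pearson correlation of at least 0.9 and 217 of at most -0.9. Pdzd4 (0.96), the myosin chaperone Unc45a (0.95), Rundc3a (0.95), the procollagen protease Bmp1 (0.95), Atp5d of the ATP synthase (0.95), the chemokine receptor Ackr1 (0.95), Cox8a of cytochrome oxidase (0.94), Ago4 of RNA silencing (0.94), Smdt1 (0.94) and Mapk1ip1 (0.94) were the highest. The lowest were Inip (-0.97), of a single-stranded DNA binding complex, the mitochondrial protein gene Ttc19 (-0.97), the cap methyltransferase Rnmt (-0.96), the splicing kinase Srpk2 (-0.96) and nucleolin, Ncl (-0.96). Oxct1 (-0.96), which lets neurons burn ketone bodies, Tspyl4 (-0.96), Rprd2 (-0.96), Khdrbs1 (-0.96) and Golga3 (-0.96) completed the 10.

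These correlations rested on the gap between a pair of lines and the rest. Without Tbc1d8 and Gsg1l, over 11 line means, no gene had a correlation of at least 0.9 and 1 had one of at most -0.9. By ranks over 13 lines, 1 and 2 genes did. Pdzd4 went from 0.96 to 0.15, Cox8a from 0.94 to -0.20 and Inip from -0.97 to -0.55, while Unc45a was at 0.61. Mthfd2 went from -0.92 over 13 lines to 0.84 over 11, and Asns from -0.95 to 0.11. The line means rest on the same libraries and scaling for every gene.

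**Figure D5:**
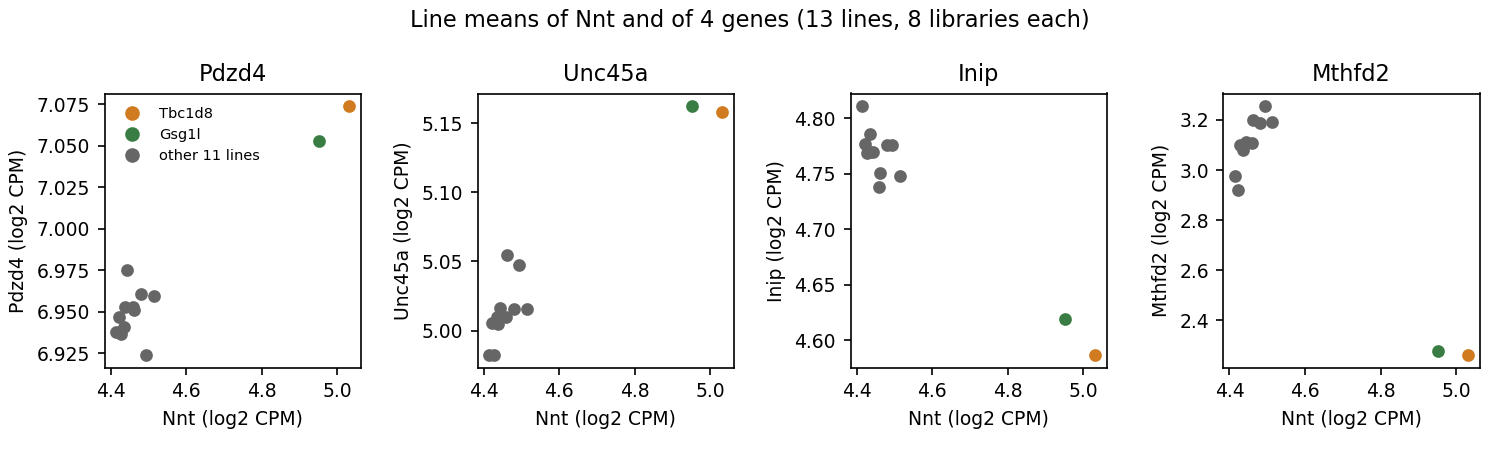
Mean log2 CPM of Pdzd4, Unc45a, Inip and Mthfd2 against that of Nnt, 1 point per line (8 libraries each). The correlations over 13 lines, 0.96, 0.95, -0.97 and -0.92, are set by Tbc1d8 and Gsg1l lying apart, and among the other 11 lines Mthfd2 has a correlation of 0.84.

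Single libraries separated Nnt from the genes that followed it. For each library, the 20 genes named above were counted as nearer, in log2 CPM, to the Tbc1d8 mean or to the mean of the other 11 lines. The Tbc1d8 libraries had 16 to 20 genes nearer to their own mean, 7 Gsg1l libraries had 11 to 20, and the 88 libraries of the other lines had 0 to 17, with a median of 2. The 20 genes had been picked for how they followed Nnt over the line means, so this separation is a description. The ranges overlapped also without Dach1 and Rgs9, where the other 9 lines reached 12, in Hrk male 17 with Nnt at 21.6 CPM. Gsg1l female 14, low for Nnt, had 4. Dach1 female 5 had 17, with Nnt at 22.1 CPM.

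That Dach1 library, picked out after its values were seen, was at 4.89 CPM for Mthfd2, 83.6 CPM for Asns, 24.5 CPM for Inip and 628 CPM for Tspyl4. In Tbc1d8 the ranges were 4.11 to 5.14 CPM for Mthfd2, 71.7 to 83.7 for Asns, 21.9 to 25.4 for Inip and 558 to 631 for Tspyl4. Its Nnt was 22.1 CPM and its Gabra2 58.2 CPM, both within the range of the lines other than Tbc1d8, Gsg1l and Dach1. Dach1 male 7 had 8 of the 20, with Mthfd2 at 4.12, Gabra2 at 88.8 and Nnt at 19.6 CPM.

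Within lines, no gene followed Nnt closely. Over all libraries, with line and sex removed from log2 CPM, no gene of 12045 had an absolute correlation of 0.5 or more. The highest were Fam129c (0.41), the transporter gene Slc26a10 (0.41), Hsdl2 (0.40), Rexo4 (0.38), Mok (0.38), the centriole gene Cenpj (0.38), Pacsin2 (0.38), the amino acid transporter Slc43a2 (0.38), the potassium channel partner Kcnip2 (0.37) and Fra10ac1 (0.37). The lowest were Maged1 (-0.40), Gtf2h1 (-0.39), the receptor kinase Axl (-0.38), Fam171b (-0.38), Plcxd1 (-0.38), the choline dehydrogenase Chdh (-0.38), the fatty acid desaturase Fads2 (-0.37), Ptprr (-0.37), Ppp2r2d (-0.37) and Fam49b (-0.36).

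Leaving out Gsg1l female 14 moved some of these. Without it Slc43a2 reached 0.56 and Chdh -0.54, and 3 and 4 genes passed 0.5 and -0.5. Without both high lines, 9 and 11 genes did, led by Slc43a2 (0.64) and Axl (-0.57). The residuals share library depth and scaling, and the correlation of Nnt with the library total was 0.07.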

How the data were processed

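Cortex RNA was read as stranded TruSeq libraries, per the labels' protocols. The deposited gene counts are whole reads per Ensembl gene and per RefSeq symbol with no normalization, and the deposited FPKM values were scaled by gene length and depth by the authors. The submitters' processing notes name the aligner STAR 2.7.3a, the counter HTSeq 0.10.0, and GRCm38 or mm10 as the build. Counting mode, strand setting and filters are not given in the sources used here, so how reads of overlapping genes were assigned is unknown. The Ensembl count table ended inside a line, and that 1 line was left out. Genes past that point, such as Wdfy1, Gpx4 and Txnrd2, are absent from it. Library totals, CPM and tested genes from the Ensembl counts thus come only from its 19563 genes. Gene symbols were matched through the Ensembl identifiers.

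Counts were tested with edgeR 4.0.16 (glmQLFit and glmQLFTest, TMM, filterByExpr by line and sex) in R 4.3.3, which kept 14283 genes. Lines were each compared with the mean of the other 12 with sex as a term, sex with line as a term, and plate with both. Called means a Benjamini-Hochberg adjusted p under 0.05 over all tested genes, and the standard error is the log2 difference divided by the square root of F. Correlations used log2 CPM with a prior count of 2. Sex was permuted within lines in 100000 draws. Alternatives were DESeq2 1.42.0, its size factors, no filter, RefSeq counts, and limma 3.58.1 on log2 FPKM. Kinship among the mice is not given, and p-values treat each library as an independent sample.

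Nnt, the lists and the tests were chosen with earlier results of these data known. Named genes are the 10 most and 10 least correlated, tested neighbours within 2 Mb, and list members called in a line or most abundant. Some genes that this rule names are not reported here. In simulated counts for 14283 genes, 66% of genes changed 1.1-fold were called in Tbc1d8, 58% in Gsg1l and 80% by sex, and 100% of those changed 1.5-fold in each. The changed genes were drawn only from those above a minimum mean read count, and no other differences between lines were simulated. These rates thus do not cover genes of low counts.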

Additional observations from a re-analysis of the deposited data

Results flagged for a closer look

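Nnt in Gsg1l female replicate 14 was at 23.7 CPM, apart from the other 7 libraries of its line, of which the nearest was at 30.6 CPM. Nnt in Zswim6 female replicate 52 was at 25.9 CPM, with the nearest of its line at 22.8 CPM. In each case the gap to the nearest library was large against the range of the 8. Of 39 groups by line or by line and sex that were examined in this way, 2 gave such a library, and chance gives about 1 in 20 groups.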

How the results depend on the processing

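The log2 difference of Tbc1d8 from the other lines ran from 0.42 to 0.58 over its alternatives and that of Gsg1l from 0.36 to 0.50. The lowest for Tbc1d8, 0.42, was on the log2(FPKM + 1) scale with limma, where the added 1 shrinks differences of low values. Leaving out each library of the line in turn gave 0.52 to 0.55 for Tbc1d8 and 0.42 to 0.51 for Gsg1l, the last without female 14. Leaving out each library in turn moved the sex difference in mean log2 CPM between 0.0217 and 0.0362. No alternative called Nnt by sex, by plate or by the interaction of line and sex. By sex, the edgeR, DESeq2 and limma fits gave adjusted p from 0.158 to 0.577. Counted over every tested gene of the window, including those not described, the number of called neighbours in Gsg1l went from 1 to 2 with RefSeq counts and also against the 11 lines alone. With every gene of the window in the RefSeq table, chosen after seeing the data, it was 2 in Gsg1l and 2 in Tbc1d8. Genes following Nnt between lines fell from 297 to 1 without Tbc1d8 and Gsg1l and to 3 by ranks. Genes following it within lines went from 0 to 7 without Gsg1l female 14 and to 20 without both high lines. Called list genes stayed between 31 and 39 in Tbc1d8, 26 and 36 in Gsg1l, and 8 and 12 by sex.

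With the replicate number of each line as a block, the sex difference of Nnt was 0.03 (edgeR adjusted p = 0.360) and 12 list genes were called by sex against 11. Same-numbered females and males did not deviate together, with correlations from -0.242 to 0.265 and 9 of 52 pairs over 0.1, so the numbers were not taken as pairs. Nnt had a median of 651 reads in the libraries of the other lines, and differences below the counting error of a library could not be seen in it.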

Other observations

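Among the marker lists, some neuronal genes differed in the lines high for Nnt. Penk, which encodes the precursor of enkephalins, was at 30.2 ± 3.05 CPM in Tbc1d8, 30.4 ± 4.89 in Gsg1l and 36.5 ± 5.03 in the other lines (SD, n = 8, 8 and 88), and fell by 0.25 ± 0.07 and 0.24 ± 0.07 on the log2 scale (edgeR adjusted p = 0.00809 and 0.0158). Ppp1r1b, a phosphatase inhibitor of dopamine signalling on the same striatal list, rose by 0.14 ± 0.03 and 0.17 ± 0.03. The vesicular GABA transporter Slc32a1 fell by 0.12 ± 0.03 and 0.09 ± 0.03, and the excitatory kinase Camk2a rose by 0.10 ± 0.02 and 0.08 ± 0.02. Of the 8 striatal markers tested, 1 rose and 1 fell in each line. Of 10 excitatory neuron markers tested, 1 rose and 1 fell in Tbc1d8, and 2 rose and none fell in Gsg1l. Of 7 interneuron markers tested, none rose and 1 fell in Tbc1d8, and 1 rose and 1 fell in Gsg1l. Over all tested genes, 12.5% were called in Tbc1d8 and 11% in Gsg1l.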
